A study of Mus musculus with 12 samples.

Results

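The comparison described here is between the 2 arrays labelled Tet1 KD and the 2 arrays labelled EGFP KD, which were 4 of 12 single-colour expression arrays in the series and were chosen by their labels alone. All 4 held total RNA from E14 cells, a mouse embryonic stem (ES) cell line, that were grown in serum and LIF on gelatin without feeder cells. Each dish was transfected with esiRNAs, short interfering RNAs made by enzymatic digestion of a longer double-stranded RNA, and RNA was taken 48 hr later. EGFP KD cells were the control, since ES cells have no EGFP mRNA to lose, and Tet1 KD cells received esiRNAs against Tet1. The transfection was transient and each sample came from a whole dish, so cells that took up no esiRNA were measured together with those that did. The study's methods call the array replicates biological, and the labels number them 1 and 2 without tying them to separate transfections, so the p-values below measure the spread between these samples. The other 8 arrays held cells in which esiRNAs targeted Chd4, Dnmt1, Mbd2 or Mbd3, 2 arrays for each target.

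Tet1 is a dioxygenase that oxidises 5-methylcytosine to 5-hydroxymethylcytosine and further oxidised forms. Tdg, a DNA glycosylase, and base excision repair can then return the oxidised base to unmodified cytosine. In ES cells Tet1 is abundant and lies mostly at CpG-rich promoters, where it meets the Sin3a co-repressor complex and the glycosyltransferase Ogt. Mbd2 and Mbd3 are methyl-CpG binding domain proteins, and each is a subunit of its own form of the NuRD chromatin remodelling complex. The study used these arrays to ask whether DNA methylation enzymes and the MBD proteins act on the same genes, and the comparison described here is the Tet1 arm of that design.

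The sequences before the annotated starts of Tet1, Krt8 and Id2 are shown because Tet1 binds CpG-rich promoters and these genes differ in CpG content (RefSeq, GRCm38.p6, 5′ to 3′, CpG dinucleotides in capitals). They lie at chr10:62887470-62887574, chr15:102004343-102004592 and chr12:25096093-25096342, all on the minus strand.
Tet1: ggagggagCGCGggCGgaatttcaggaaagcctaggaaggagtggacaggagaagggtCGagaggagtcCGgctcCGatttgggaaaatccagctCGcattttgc
Krt8: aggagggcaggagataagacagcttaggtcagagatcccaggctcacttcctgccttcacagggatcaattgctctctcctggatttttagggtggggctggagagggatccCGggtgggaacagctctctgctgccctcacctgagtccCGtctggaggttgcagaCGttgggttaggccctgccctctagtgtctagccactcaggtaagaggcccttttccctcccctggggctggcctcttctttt
Id2: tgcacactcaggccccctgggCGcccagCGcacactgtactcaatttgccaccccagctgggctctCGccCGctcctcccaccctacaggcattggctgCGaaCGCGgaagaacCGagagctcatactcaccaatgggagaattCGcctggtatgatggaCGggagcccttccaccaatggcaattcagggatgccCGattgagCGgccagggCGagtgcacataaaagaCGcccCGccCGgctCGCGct
Over 250 bases Id2 had 18 CpG dinucleotides and Krt8 had 3 (78.8% and 29.1% of all genes had fewer), and Tet1 had 7 in the 105 bases shown. Id2 and Krt8 are described with the trophectoderm genes below.

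Values are log2 scaled signals, in which the processed intensity of a probe was divided by the 75th percentile of its array. A value of 0 is therefore the 75th percentile, and the scale has a floor at -4.86, set where the least sensitive array still told a probe from background. The scaled signal of a probe is not comparable with that of another probe, so levels are compared only between arrays. Of the 29546 genes tested, 24784 were well above background and not saturated on all 4 arrays. The 75th percentile was at an intensity of 1784.5 to 2273.5 on the 4 arrays, and the share of probes well above background was 80.9% on EGFP KD replicate 1 and 90.6% to 91.9% on the other 3. Precision is limited by the number of arrays, 2 per group.

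Tet1 mRNA was low on only 1 of the 2 arrays labelled Tet1 KD. The Tet1 gene lies at chr10:62804570-62887469 (GRCm38.p6), on the minus strand. The probe A_55_P2122997, which stood for Tet1, had a log2 signal of 2.14 and 2.00 on the EGFP KD arrays. Of the arrays labelled Tet1 KD, replicate 1 had 2.05 and replicate 2 had 0.25. Against the EGFP KD mean, the scaled signal was thus 98.7% on replicate 1 and 28.4% on replicate 2. A second Tet1 probe, A_51_P512172, gave the same order. Its log2 signals were -0.09 and 0.34 on the EGFP KD arrays, and of the arrays labelled Tet1 KD, replicate 1 had 0.36 and replicate 2 had -0.80, which is 117% and 52.5% of the EGFP KD mean.

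The array labelled Mbd2 KD replicate 1 was the other array with low Tet1 mRNA. The probe A_55_P2122997 had 0.28 there, or 28.9% of the EGFP KD mean, and 1.88 on Mbd2 KD replicate 2. On the Dnmt1 KD, Mbd3 KD and Chd4 KD arrays it ranged from 1.18 to 2.17. The mean was 2.07 ± 0.10 for EGFP KD and 1.15 ± 1.27 for the arrays labelled Tet1 KD (SD, n = 2 each). The log2 fold change of Tet1 in the fit of the labelled groups was -0.92 (standard error 0.65, limma adjusted p = 1.0), since the labelled replicates were 1.80 apart. That value was -1.81 without the array labelled Tet1 KD replicate 1, and -0.02 without the array labelled replicate 2.

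Mbd2 mRNA had the opposite arrangement on the probe A_66_P133043. Its log2 signal was -0.83 and -1.09 on the EGFP KD arrays. Of the arrays labelled Tet1 KD, replicate 1 had -2.71 and replicate 2 had -1.19. These are 29.8% and 85.0% of the EGFP KD mean. On the Mbd2 KD arrays the same probe had -1.20 on replicate 1 and -2.73 on replicate 2, which is 84.8% and 29.2%. The pattern of both genes was therefore that the array labelled Tet1 KD replicate 1 had low Mbd2 and unreduced Tet1, whereas the array labelled Mbd2 KD replicate 1 had low Tet1 and Mbd2 close to the controls.

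A second Mbd2 probe, A_55_P2036526, did not follow this order. It had -0.71 and -0.83 on the EGFP KD arrays, -0.97 and -1.38 on the arrays labelled Tet1 KD, and -0.85 on each Mbd2 KD array. The log2 fold changes of the probes A_66_P133043 and A_55_P2036526 were -0.99 (standard error 0.60) and -0.40 (standard error 0.17), both with a limma adjusted p of 1.0. The deposited files hold no probe sequences, and which transcripts each probe reads was not analysed here. Label and targeted mRNA thus disagreed on 2 arrays of the series, those labelled Tet1 KD replicate 1 and Mbd2 KD replicate 1, of which the former enters this comparison. Whether the 2 arrays were exchanged was not tested. Every comparison below is between arrays as labelled, and both replicates are given.

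**Figure D1:**
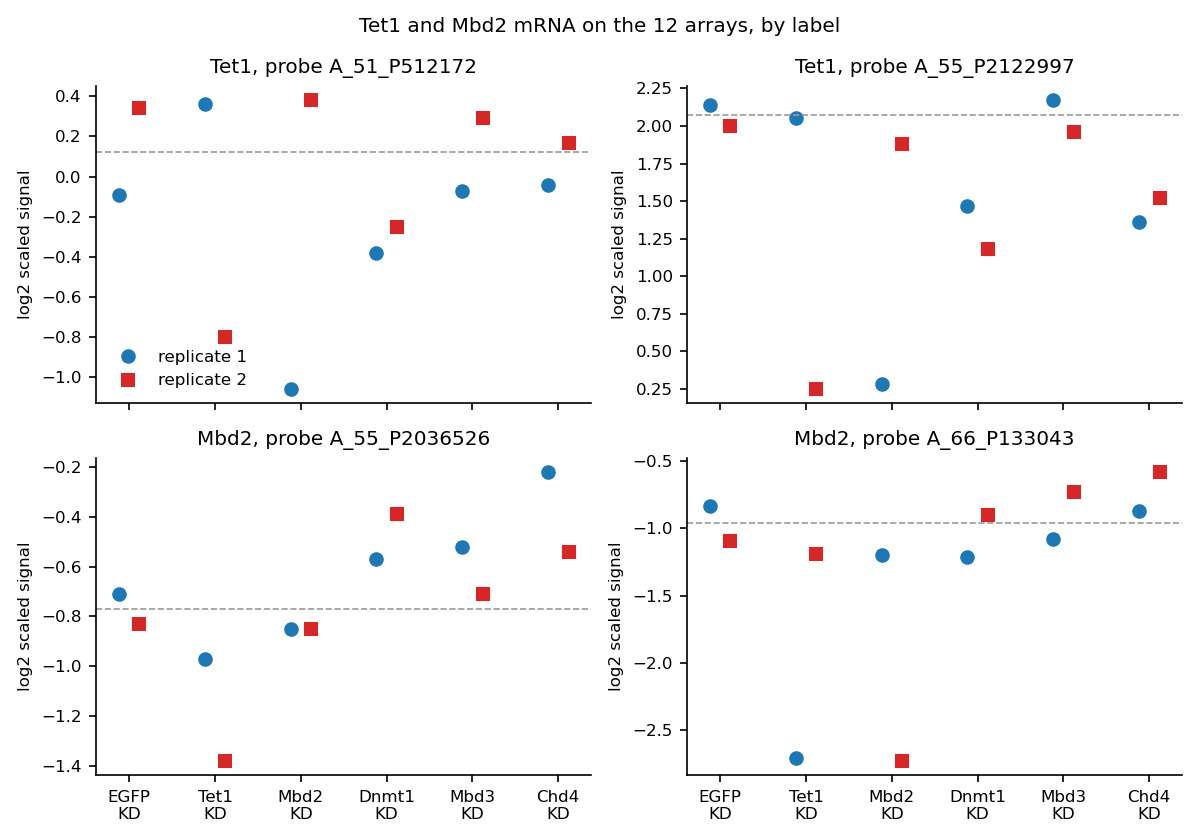
Log2 scaled signal of 2 Tet1 probes (top) and 2 Mbd2 probes (bottom) on the 12 arrays, by labelled group (circles, replicate 1; squares, replicate 2; dashed line, EGFP KD mean). With the probe A_55_P2122997, Tet1 was lowest on Tet1 KD replicate 2 (0.25) and Mbd2 KD replicate 1 (0.28), and with A_66_P133043 Mbd2 was lowest on Tet1 KD replicate 1 (-2.71) and Mbd2 KD replicate 2 (-2.73), by label.

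The arrays lay on 3 slides of 4. Both arrays labelled Tet1 KD and EGFP KD replicate 2 were on slide 2, and EGFP KD replicate 1 was on slide 1. The median absolute log2 difference over 29546 genes was 0.286 between the EGFP KD arrays and 0.31 and 0.34 between EGFP KD replicate 1 and the arrays labelled Tet1 KD. Within slide 2 it was smaller, at 0.126 and 0.129 between EGFP KD replicate 2 and the arrays labelled Tet1 KD, and 0.154 between those arrays themselves. The 3 arrays on slide 2 were thus closer to each other, whatever their label, than the control arrays were.

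After Benjamini-Hochberg adjustment of the limma p, no gene was called (0 of 29546 at an adjusted p under 0.05, 0.0%), and the smallest adjusted p was 0.549. At an unadjusted p under 0.05, 576 genes were higher (1.95%) and 265 lower (0.897%). The unadjusted split depended on the normalization, with 68.5% of these genes higher in the fit given here, 25.9% after quantile normalization and 3.75% after normexp background correction. Leaving out 1 control array gave 5 calls (without EGFP KD replicate 1) or 30 (without EGFP KD replicate 2), and leaving out either array labelled Tet1 KD gave 0. All 5 of the former were low on EGFP KD replicate 2 alone. Crip2, a LIM-domain protein gene, had a log2 signal of 3.82 and -4.86 on EGFP KD replicates 1 and 2, and the arrays labelled Tet1 KD had 3.50 and 3.11. Pkp2, which encodes a desmosomal plaque protein, had 2.50, -4.86, 2.21 and 2.22 on the same arrays.

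Both arrays labelled Tet1 KD lay above both EGFP KD arrays for 6881 genes (23.3%) and below both for 3546 genes (12%). The shares followed brightness. Of 4243 genes with a mean log2 signal from -4 to -3, 37.6% were above and 3.02% below, whereas of 3891 genes with a mean of 2 or over, 6.01% were above and 27.1% below. The control arrays differed in the same way, since EGFP KD replicate 2 was 0.57 higher than EGFP KD replicate 1 at the median of the dim group and 0.04 lower at that of the bright group. Against EGFP KD replicate 2, the medians of the dim group were 0.05 and 0.08 on the arrays labelled Tet1 KD replicates 1 and 2, and those of the bright group 0.00 and -0.09. Slide and brightness thus moved with the count of genes above the controls, and their part in any single gene was not tested. For this reason differences from EGFP KD replicate 2 are also given below for several genes and lists.

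**Figure D2:**
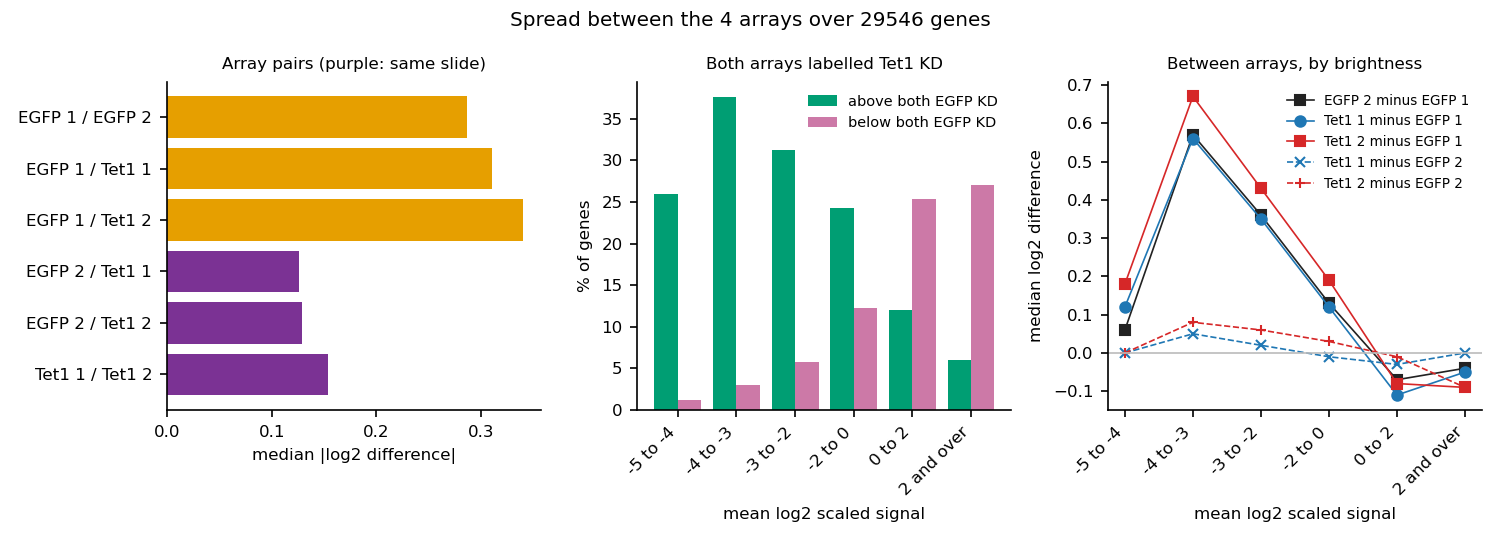
Left, median absolute log2 difference for each pair of the 4 arrays. Centre, share of genes with both arrays labelled Tet1 KD above or below both EGFP KD arrays, by mean log2 scaled signal. Right, median log2 difference between arrays by the same groups of genes. Pairs on the same slide differed by 0.126 to 0.154 and pairs on different slides by 0.286 to 0.34, and the right panel falls to near 0 where both arrays were on slide 2.

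Separately, a gene was asked to keep its place under all 3 normalizations (75th percentile, quantile and normexp), which left 767 genes above both controls (2.6%) and 1459 below (4.94%). These normalizations act on whole arrays and do not adjust a single gene for its slide. Plet1, for example, kept its place with a log2 fold change of 0.81, which was 0.09 against EGFP KD replicate 2 alone and -0.07 with a slide block. The median log2 fold change of all genes was 0.09 in the fit given here, 0.0 after quantile normalization and -0.26 after normexp correction. The normexp shift was larger for genes at the floor on all 4 arrays, for example Brachyury (T), Elf5 and Rsad2. They had 0.0 in the fit given here and -1.23, -1.44 and -1.24 after normexp correction. For dim genes, a place kept below the controls is thus weaker support than a place kept above. Changes of sign given below include these shifts. Of the named genes, 25 of 83 above and 37 of 66 below kept their place. The genes named from here on that lost their place are given as such, singly or with their list. Apart from Tmem100 (0.549), all genes named below had a limma adjusted p of 1.0, so none of the differences passed the test. Of 24784 genes measured on all 4 arrays, 447 were more than 2-fold above the EGFP KD mean on both arrays labelled Tet1 KD and 14 more than 2-fold below it, and against EGFP KD replicate 2 on the same slide 162 and 19. Of 7205 genes with a mean log2 signal over 0 that were measured on all 4 arrays, 18 were more than 2-fold above the EGFP KD mean on both arrays labelled Tet1 KD and 2 were more than 2-fold below it. Against EGFP KD replicate 2 on the same slide these counts were 17 and 4.

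The Tet family and the enzymes of demethylation came first. Tet2, a second 5-methylcytosine dioxygenase, had 1.06 and 1.47 on the EGFP KD arrays and 1.13 and 1.60 on the arrays labelled Tet1 KD. Tet3, the third family member, had 0.14 and 0.35 against 0.35 and 0.42. Tdg had -0.91 and -1.02 against -0.99 and -0.59. The groups overlapped for all 3 genes, with log2 fold changes of 0.10 (standard error 0.25), 0.14 (standard error 0.44) and 0.17 (standard error 0.27). Tet2 and Tdg were higher on the array with low Tet1 mRNA than on the other array labelled Tet1 KD.

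Over all genes 23.3% lay above both controls and 12% below, and the count of each list below stands beside these shares. Of 19 genes of TET oxidation and active demethylation, 1 lay above both controls and 3 below, with a median log2 fold change of -0.05, beside 0.09 for all genes. The gene above was Neil3, a DNA glycosylase, with -3.23 and -2.91 on the EGFP KD arrays and -2.77 and -2.64 on the arrays labelled Tet1 KD, a difference of 0.36 that turned to -0.47 after normexp correction. The repair genes Apex1, Ung and Ogg1 were the 3 below. Apex1, the abasic site endonuclease, had 4.5 and 4.32 against 4.26 and 4.07, and Ogg1, the glycosylase of 8-oxoguanine, had -0.06 and -0.57 against -0.71 and -0.62. Ogg1 alone kept its place under all 3 normalizations.

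Dnmt1, the maintenance DNA methyltransferase, was at 1.06 and 1.13 on the EGFP KD arrays, and the arrays labelled Tet1 KD had 1.14 (replicate 1) and 0.42 (replicate 2). It was thus at 62.4% of the EGFP KD mean on the array with low Tet1 mRNA, and at 53% where Mbd2 KD replicate 1 was the label. The de novo methyltransferase Dnmt3a had -1.61 and -1.56 against -1.49 and -1.41, so that both arrays lay above the controls by 0.07 or more, and it lost that place after quantile normalization. Dnmt3b, the other de novo enzyme, had 4.65 and 4.70 against 4.66 and 4.74. Uhrf1, which recruits Dnmt1 to hemimethylated DNA, had 5.11 and 4.94 against 4.89 and 4.99. The probe of Dnmt3l, a catalytically inactive cofactor, was saturated on all 4 arrays. Of 12 methyltransferases and cofactors, 1 lay above and 2 below (Hells and Pcna), with a median of -0.07, and none kept its place under all 3 normalizations.

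Of 11 methyl-CpG binding proteins 1 lay above both controls and 1, Mbd2, below, and the median was 0.01. Mbd2 (probe A_55_P2036526) kept its place under all 3 normalizations. That probe read 94.7% and 95.1% of the EGFP KD mean in Mbd2 KD replicates 1 and 2, where A_66_P133043 read 84.8% and 29.2%. For Tet1 KD replicates 1 and 2, A_66_P133043 read 29.8% and 85.0%, so the 2 probes differ on which replicate had less Mbd2. Mbd3 (probe A_66_P127024) had 4.33 and 4.49 on the EGFP KD arrays and 4.56 and 4.27 on the arrays labelled Tet1 KD, and Chd4, the NuRD ATPase, had 4.13 and 3.97 against 4.07 and 4.04. A dimmer probe of Mbd3, A_55_P1960873, had 1.77 and 1.28 against 1.14 and 0.55, with a log2 fold change of -0.68 (standard error 0.33). Of 14 NuRD subunits 3 lay above and 3 below, with a median of -0.03, and none kept its place under all 3 normalizations.

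**Figure D3:**
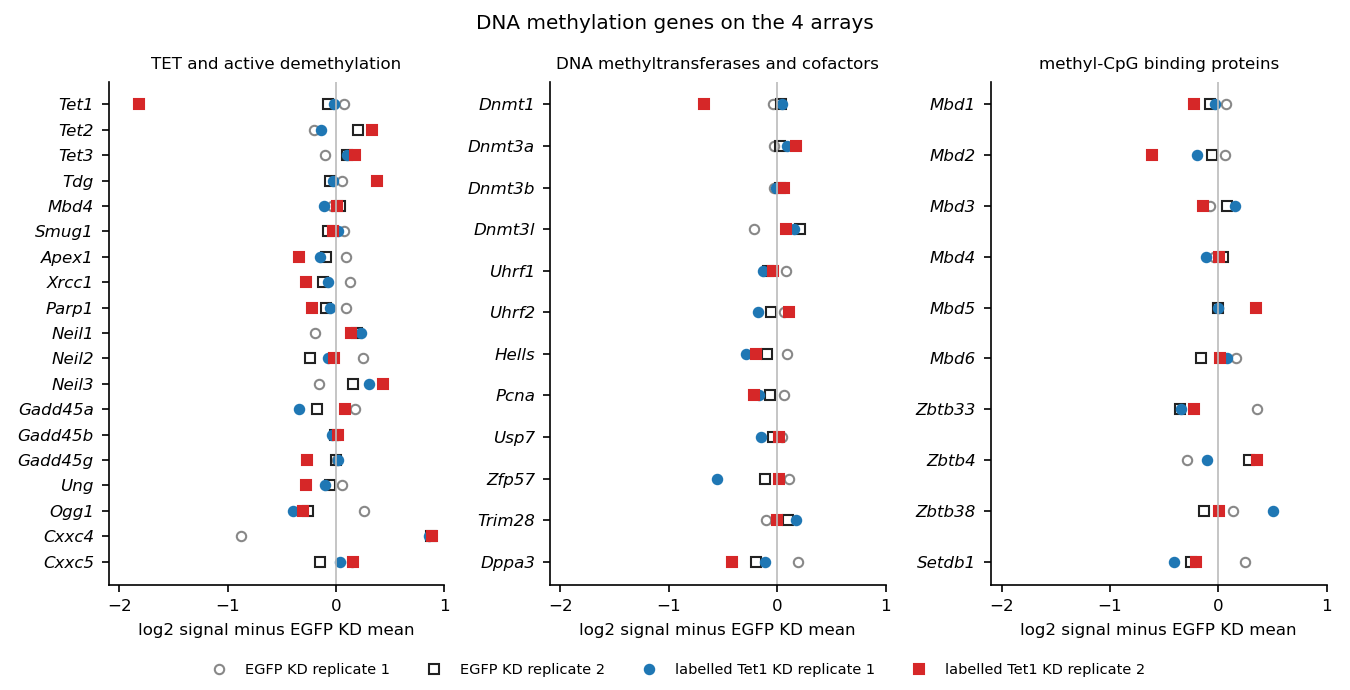
Log2 signal minus the EGFP KD mean for reported genes of TET oxidation and demethylation, DNA methyltransferases and methyl-CpG binding proteins (open grey circles and black squares, EGFP KD replicates 1 and 2; blue circles and red squares, arrays labelled Tet1 KD replicates 1 and 2). Tet1 on replicate 2 stands at -1.81, and Dnmt1 and Mbd2 (probe A_55_P2036526) on the same array are the next lowest of the plotted genes. The other Mbd2 probe, A_66_P133043, had the opposite order, with -1.75 for replicate 1 and -0.23 for replicate 2.

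Of 22 genes that encode Tet1 partners, 6 lay below and 1 above both controls, with a median of -0.13. Of all genes with a mean log2 signal from 0 to 2, which holds the median EGFP KD signal of this list (1.42), 25.4% lay below, and under quantile normalization 3 of the 22 did. Ing1, a reader of methylated histone H3 in the Sin3a complex, had 2.80 and 2.61 on the EGFP KD arrays and 1.94 and 2.28 on the arrays labelled Tet1 KD. Its log2 fold change was -0.60 (standard error 0.15), and against EGFP KD replicate 2 it was lower by 0.67 and 0.33. Suds3, another Sin3a complex subunit, had 1.47 and 1.37 against 1.08 and 0.73, a log2 fold change of -0.51 (standard error 0.14), and overlapped the controls after normexp correction. Ing1 and Ing2 were the members that kept their place under all 3 normalizations. Ogt had 0.39 and -0.11 against -0.72 and -0.09, so that it was low on the array labelled Tet1 KD replicate 1 alone. Sin3a itself overlapped the controls, with 1.58 and 1.27 against 1.26 and 1.48.

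ES cell identity was read from 5 defining markers. Pou5f1 (saturated on 3 arrays) and Sox2, the core pluripotency factors, had 4.62 and 5.10 and 2.41 and 2.32 on the EGFP KD arrays, and 5.02 and 4.89 and 2.29 and 2.39 on the arrays labelled Tet1 KD. Esrrb and Zfp42, markers of the naive state, were saturated on all 4 arrays. The probe of Nanog read between -4.58 and -3.97, near the floor, on all 4 arrays, and no statement on Nanog can be drawn from it. Of 36 pluripotency genes 5 lay above and 4 below both controls, with a median of -0.05. The median EGFP KD signal of this list was 2.86. Of all genes with a mean log2 signal of 2 or over, 6.01% lay above and 27.1% below.

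Klf5, a Krüppel-like factor of the naive state, had 3.30 and 3.19 on the EGFP KD arrays and 3.50 and 3.58 on the arrays labelled Tet1 KD, a log2 fold change of 0.29 (standard error 0.13). Tbx3, a T-box factor of the same state, had 2.40 and 2.12 against 2.55 and 2.51. Over the other 8 arrays of the series Klf5 ranged from 3.35 to 3.73, also above both EGFP KD arrays. Klf5, Tbx3, Sall1 and Tdh, a threonine dehydrogenase that was saturated, were the 4 genes above under all 3 normalizations, and no pluripotency gene was below under all 3. The gene Dppa2, a SAP-domain factor, had 2.92 and 2.54 against 2.36 and 2.42, and turned from -0.34 to 0.06 after normexp correction. On the array with low Tet1 mRNA, Pou5f1, Sox2 and Klf5 were within 0.21, 0.07 and 0.39 of EGFP KD replicate 2.

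Of 21 Nodal and Lefty signalling genes, 8 lay below and 3 above both controls, with a median of -0.12. Of all genes with a mean log2 signal from 0 to 2, which holds the median EGFP KD signal of this list (0.96), 25.4% lay below. Under quantile normalization and under normexp correction 3 were below, and 1 was below under all 3 normalizations. Lefty1, a secreted inhibitor of Nodal, had 1.11 and 0.86 on the EGFP KD arrays and 0.54 and 0.33 on the arrays labelled Tet1 KD, a log2 fold change of -0.55 (standard error 0.25). Lefty2, its paralogue, had 1.53 and 1.68 against 1.22 and 1.44, and overlapped the controls under quantile normalization and normexp correction. The ligand Nodal had 2.25 and 2.26 against 2.24 and 1.83, so that it was low on the array labelled replicate 2 alone, and it overlapped under the same 2 settings. Lefty1 overlapped the controls after normexp correction. The median of the list against EGFP KD replicate 2 was -0.06 and 0.05 on the arrays labelled Tet1 KD.

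Trophectoderm genes, which mark the outer lineage of the blastocyst, were measured for 27 members, with 6 above and 9 below both controls and a median of -0.07. The median EGFP KD signal of this list was -1.31. Of all genes with a mean log2 signal from -2 to 0, 24.3% lay above and 12.3% below. Id2, an inhibitor of basic helix-loop-helix factors, had -0.72 and -0.52 on the EGFP KD arrays and -1.61 and -1.20 on the arrays labelled Tet1 KD. Its log2 fold change was -0.79 (standard error 0.23), a 1.72-fold difference. Krt8, an intermediate filament protein of simple epithelia, had -1.5 and -1.49 against -2.03 and -2.37, a log2 fold change of -0.70 (standard error 0.30). Krt19, another keratin, had -0.33 and -0.06 against -0.53 and -0.89.

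Gata3 was near the floor and was among the 5 genes with the smallest limma p. It had -3.87 and -4.12 on the EGFP KD arrays and was at the floor on both arrays labelled Tet1 KD, of which 1 was well above background, so that it was at least 1.82-fold lower. Its fitted log2 fold change was -0.86 (standard error 0.12). Over the other 8 arrays of the series Gata3 ranged from -4.86 to -3.59 with a median of -4.79. A level near the floor was thus not particular to the Tet1 KD label. Eomes, a T-box factor of trophectoderm and mesendoderm, was higher, with -1.29 and -1.33 against -0.82 and -0.74, a log2 fold change of 0.53 (standard error 0.37). Under all 3 normalizations 6 of the genes stayed below, which were Id2, Krt8, Krt19, Gata3, Cdx2 and Hand1, and 3 stayed above, which were Eomes, Plet1 and Tfap2c. Over all genes 4.94% stayed below and 2.6% above. The log2 fold change of Plet1 was 0.81, but 0.09 against EGFP KD replicate 2 alone and -0.07 with a slide block. Cdx2, a defining trophectoderm factor, read between -4.86 and -4.44, at or near the floor, and Elf5 was at the floor on all 4 arrays.

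CpG content was compared over 15235 tested genes with a promoter sequence, as a description. The motif searched was CG, which reads the same on both strands and was held by 92.3% of all promoters of that length. Genes with fewer than 3 CpG were above both controls in 30.1% and below in 4.13% of cases, whereas genes with 20 or more were above in 17.3% and below in 19.6%. The former were dimmer, with a median EGFP KD signal of -3.15 against -0.18, and their control arrays differed by 0.37 at the median against -0.02. Against EGFP KD replicate 2, the medians on the arrays labelled Tet1 KD were 0.01 and 0.04 for genes with fewer than 3 CpG and -0.03 and 0.02 for genes with 20 or more. Within slide 2, the 2 classes of promoter therefore stood within 0.04 of each other on both arrays.

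Of 23 primitive endoderm genes, 5 lay above and 3 below both controls, with a median of 0.21. The median was -0.09 and 0.10 against EGFP KD replicate 2, 0.01 after quantile normalization (0.0 for all genes) and -0.31 after normexp correction (-0.26 for all genes). Gata4, a zinc-finger factor that specifies this lineage, had -3.32 and -3.31 on the EGFP KD arrays and -2.25 and -2.22 on the arrays labelled Tet1 KD. Its log2 fold change was 1.08 (standard error 0.33) and it was higher by 1.06 and 1.09 than EGFP KD replicate 2, and it turned to -0.08 after normexp correction. Over the other 8 arrays of the series Gata4 ranged from -2.64 to -1.20, also above both EGFP KD arrays, so its level was not particular to the Tet1 KD label. Gata6, the partner factor, had -3.17 and -2.75 against -2.91 and -2.44. Cubn, an endocytic receptor of visceral endoderm, had -2.47 and -2.88 against -3.19 and -3.44. Over the other 8 arrays Cubn ranged from -4.76 to -2.77 with a median of -3.38, so its level was not particular to the Tet1 KD label either. Cubn and Rhou were below under all 3 normalizations, and none was above.

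Of 22 genes of primed epiblast and mesoderm, 7 lay above and 4 below, with a median of 0.04. Of all genes with a mean log2 signal from -2 to 0, which holds the median EGFP KD signal of this list (-1.64), 24.3% lay above and 12.3% below. Kdr, a receptor of vascular endothelial growth factor, had 1.26 and 1.56 against 2.10 and 1.71. The 4 genes below, Krt8, Evx1, Cdx1 and Sp5, all kept their place under all 3 normalizations, and so did Kdr. Brachyury (T) was at the floor on all 4 arrays. Of 25 neuroectoderm genes 7 lay above and 0 below, with a median of 0.09, and none kept its place. The median EGFP KD signal of this list was also -1.64, so the same shares of all genes (24.3% and 12.3%) stand beside its counts. Sox1, an early neural factor, had -0.94 and -0.71 against -0.63 and -0.68.

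Fibroblast markers were read as a check on other cells. Of 15 genes 4 lay above and 0 below, and the median was 0.26. It was -0.03 and 0.08 against EGFP KD replicate 2, and -0.23 after normexp correction, beside -0.26 for all genes. The summed scaled signal was 51.3 and 52.7 on the EGFP KD arrays and 59.8 and 56.7 on the arrays labelled Tet1 KD. Thy1 had 1.70 and 1.80 against 2.08 and 2.02. The collagen gene Col1a1 read between -4.83 and -4.27 and Fbn1 was at the floor on all 4 arrays. The summed signal was 20.2 and 22.1 against 21.9 and 21.1 for trophectoderm, 51.5 and 55.5 against 66.0 and 54.1 for primitive endoderm, 18.4 and 20.3 against 21 and 21.3 for primed epiblast and mesoderm, and 38.5 and 40.6 against 36.9 and 42.3 for neuroectoderm. In bulk RNA a lower share of cells and less RNA per cell cannot be told apart.

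Genes of methylated promoters were described next. Of 41 germline genes, many of them silenced by promoter methylation, 10 lay above and 4 below, with a median of 0.05. Of all genes with a mean log2 signal from -3 to -2, which holds the median EGFP KD signal of this list (-2.12), 31.2% lay above and 5.72% below. Dazl, an RNA-binding protein of germ cells, had -2.42 and -2.48 on the EGFP KD arrays and -2.75 and -2.43 on the arrays labelled Tet1 KD. Mael, a factor of transposon silencing, had 0.23 and 0.08 against -0.14 and 0.01, and overlapped the controls after normexp correction. Brdt, a testis bromodomain protein, had 0.63 and -0.46 against 1.16 and 0.78, and Sohlh2, a helix-loop-helix factor of germ cells, had -0.12 and -0.21 against 0.09 and 0.12. Under all 3 normalizations 4 of these genes were above, Brdt, Sohlh2, Gtsf1 and Rec8, and Stk31 was below.

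Of 47 imprinted genes, 11 lay above and 6 below, with a median of 0.07. Of all genes with a mean log2 signal from -2 to 0, which holds the median EGFP KD signal of this list (-0.43), 24.3% lay above and 12.3% below. Zdbf2 had -1.58 and -2.06 on the EGFP KD arrays and -1.10 and -1.01 on the arrays labelled Tet1 KD, a log2 fold change of 0.77 (standard error 0.20), and overlapped the controls after normexp correction. Over the other 8 arrays of the series Zdbf2 ranged from -1.43 to -0.94, also above both EGFP KD arrays. Peg3, a paternally expressed zinc-finger gene, had -1.98 and -1.57 against -2.35 and -2.36, a log2 fold change of -0.58 (standard error 0.31). Grb10, an adaptor of growth factor receptors, had -1.63 and -1.51 against -1.27 and -0.65, and overlapped after normexp correction as well. Peg3, Ddc and Nnat were below under all 3 normalizations, and none was above.

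Genes of the 2-cell stage, which mark a rare state of ES cell cultures, were the list whose labelled replicates were furthest apart. The arrays labelled Tet1 KD had medians over 21 genes of 0.50 (replicate 1) and 0.03 (replicate 2) above the EGFP KD mean. Against EGFP KD replicate 2 these medians were 0.23 and -0.01. Zscan4c had 0.39 on both EGFP KD arrays, 0.97 on the array labelled replicate 1 and 0.41 on replicate 2. These genes belong to multicopy families whose members may share a probe. Of 35 Hox genes 11 lay above and 1 below with a median of 0.28, and the control arrays differed by 0.36 at the median. The median EGFP KD signal of the Hox genes was -3.94. Of all genes with a mean log2 signal from -4 to -3, 37.6% lay above and 3.02% below. Against EGFP KD replicate 2 the Hox medians were 0.00 and 0.02. Of 10 loci taken from the study 9 were tested, and 1 (Hoxd11) lay above and 0 below, with a median of 0.09. Hoxd11 overlapped the controls under quantile normalization and normexp correction.

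**Figure D4:**
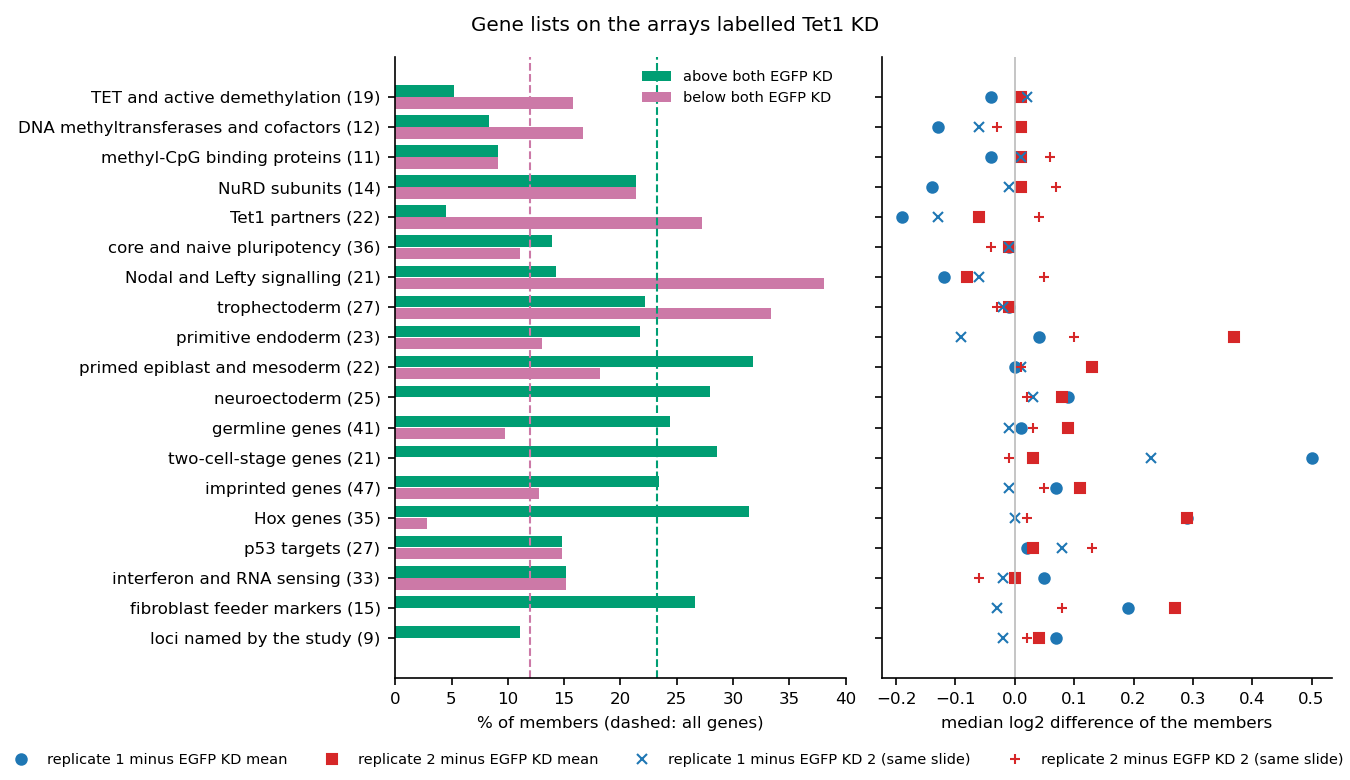
Left, share of the tested members of each list (number in brackets) with both arrays labelled Tet1 KD above (green) or below (pink) both EGFP KD arrays, with the share of all genes dashed (23.3% and 12%). Right, median log2 difference of the members on each array labelled Tet1 KD (blue, replicate 1; red, replicate 2) from the EGFP KD mean (circles and squares) and from EGFP KD replicate 2 (crosses and plus signs). Nodal and Lefty signalling had 8 of 21 members below, beside 25.4% of all genes with a mean log2 signal from 0 to 2. Against EGFP KD replicate 2 the Hox medians were 0.00 and 0.02.

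Stress and innate response genes were read last. Of 27 p53 targets 4 lay above and 4 below, with a median of 0.02. Gdf15, a secreted factor raised in several stress responses, had -0.65 and -0.50 on the EGFP KD arrays and 0.22 and 0.05 on the arrays labelled Tet1 KD, a log2 fold change of 0.71 (standard error 0.18). Bbc3, which encodes the pro-apoptotic protein Puma, had 1.29 and 1.30 against 1.63 and 1.60. Both were above under all 3 normalizations, as was Pmaip1, the gene of the related protein Noxa. Ccng1 and Ei24, with log2 fold changes of -0.53 and -0.26, were below under all 3. Of this list 3 genes were thus above and 2 below, beside 2.6% and 4.94% of all genes. Cdkn1a and Mdm2, the best known p53 targets, overlapped the controls, with -0.14 and -0.43 against -0.28 and -0.38 and with 2.38 and 2.46 against 2.44 and 2.45.

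Of 33 interferon and RNA-sensing genes 5 lay above and 5 below, with a median of 0.05. Ifitm3, a membrane protein that blocks viral entry, had 3.86 and 3.57 against 3.19 and 2.87, a log2 fold change of -0.68 (standard error 0.16), and overlapped the controls after normexp correction. Oas1a, a sensor of double-stranded RNA, had 2.88 and 2.84 against 2.58 and 2.40, and it too overlapped the controls after normexp correction. Irf7 was among the genes above, with a log2 fold change of 0.70, and overlapped after normexp correction as well. Under all 3 normalizations 1 gene of the list was above, Stat2 (0.13), and 1 below, Irf9 (-0.25), beside 2.6% and 4.94% of all genes. Ifit3, Oasl2, Rsad2 and Cxcl10, which interferon raises strongly, were at the floor on all 4 arrays.

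The genes with the largest gap between the groups were mostly dim. Among those above, Cav3, a caveolin of muscle, had -4.23 and -4.29 on the EGFP KD arrays and -2.45 and -2.63 on the arrays labelled Tet1 KD. Wfdc12, a protease inhibitor gene, had -2.25 and -2.88 against -0.39 and -0.80. Klb, a co-receptor of fibroblast growth factors, had -1.94 and -2.86 against -0.70 and -0.76. Wfdc12 and Klb kept their place under all 3 normalizations, whereas the log2 fold change of Cav3 went from 1.72 to 0.04 after normexp correction. Vmn1r196, Trim40, Kcna1, Olfr850 and Olfr1357 completed the 8 genes, with log2 fold changes from 1.37 to 2.01, and all 5 overlapped the controls after normexp correction, with values from -0.43 to 0.19.

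Among those below, Syt10, a synaptotagmin, had the largest gap but its control arrays were far apart, at 3.18 and 0.21, against -1.42 and -1.69 on the arrays labelled Tet1 KD. Over the other 8 arrays of the series it ranged from -0.01 to 2.14. The surface antigen genes Ly6a and Ly6c1 were lower with close replicates. Ly6c1 had -0.49 and -0.68 against -1.64 and -1.57, a log2 fold change of -1.02 (standard error 0.21), and Ly6a had -1.17 and -1.34 against -2.12 and -1.99, a log2 fold change of -0.80 (standard error 0.19). As members of the Ly6 family they are similar in sequence, and cross-hybridisation was not tested. Both kept their place under all 3 normalizations, and so did Prm1, Sult2a2, Inpp5e, Ak7 and Bnipl, with log2 fold changes from -1.59 to -0.72.

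The 5 genes with the smallest limma p were Tmem100, Lox, Gata3, Olfr976 and Smlr1. Tmem100 was at the floor on both EGFP KD arrays, of which 1 was well above background, and had -4.21 and -4.10 on the arrays labelled Tet1 KD, so that it was at least 1.63-fold higher (limma adjusted p = 0.549). It was at the floor on the other 8 arrays as well and was tested only because the arrays labelled Tet1 KD were well above background, so that this p rests on values set to the floor. Lox, which encodes lysyl oxidase, was at the floor on both EGFP KD arrays and had -3.81 on each array labelled Tet1 KD, at least 2.07-fold higher. Smlr1 had -4.32 and -4.49 against -3.46 and -3.37. The 4 genes that were higher (Tmem100, Lox, Olfr976 and Smlr1) turned lower after normexp correction, from -0.93 to -0.61.

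The same gap rule was also applied to genes with a mean log2 signal over 0, a limit chosen after the values were seen. Nupr1, a stress-induced chromatin protein gene, had 1.59 and 1.51 on the EGFP KD arrays and 2.13 and 2.31 on the arrays labelled Tet1 KD, a log2 fold change of 0.67 (standard error 0.16). Chac1, a glutathione-degrading enzyme, had 1.53 and 1.5 against 2.21 and 2.04, a log2 fold change of 0.61 (standard error 0.15). The histone gene H2bc18 had 2.40 and 2.11 against 3.07 and 2.84. All 3 kept their place under all 3 normalizations and lay above EGFP KD replicate 2 by 0.54 or more on each array.

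Below the controls, Fkbp2, a prolyl isomerase of the endoplasmic reticulum, had 1.92 and 1.95 against 1.38 and 1.11. Dido1, a PHD-finger protein, had 1.61 and 1.66 against 0.99 and 1.1, and Htra1, a secreted serine protease, had 3.08 and 2.73 against 2.09 and 2.28. The levels of Nupr1 and Chac1 were also met elsewhere in the series, since over the other 8 arrays they ranged from 1.95 to 2.64 and from 1.11 to 2.35. Fkbp2 was between 1.49 and 2.24 on the other 8 arrays, above both arrays labelled Tet1 KD.

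**Figure D5:**
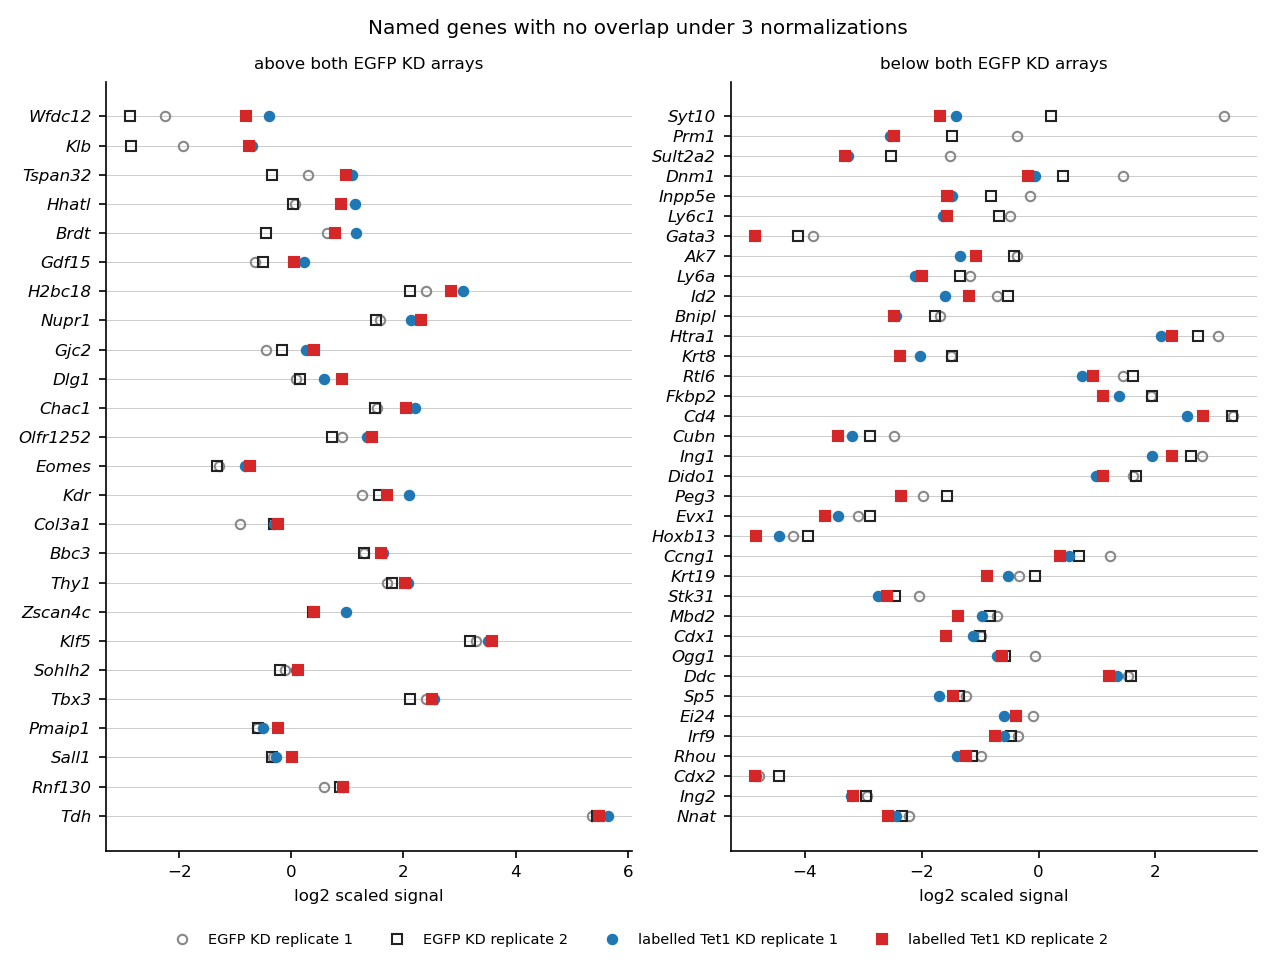
Log2 scaled signal on the 4 arrays for the reported named genes that lay above (left) or below (right) both EGFP KD arrays under all 3 normalizations (open grey circles and black squares, EGFP KD replicates 1 and 2; blue circles and red squares, arrays labelled Tet1 KD replicates 1 and 2). Ly6c1 and Ly6a stand apart from close controls, whereas the control arrays of Syt10 were at 3.18 and 0.21.

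The arrays labelled Tet1 KD also differed from each other, and genes were listed whose EGFP KD arrays differed by under 0.5. Among those lower on replicate 2, the largest differences were Cd163, Dnaaf2, Ankrd34c, Olfm2 and Olfr987. Cd163, a scavenger receptor of macrophages, was the high value of replicate 1 alone, with -4.79 and -4.34 on the EGFP KD arrays, -0.93 on the array labelled replicate 1 and -4.26 on replicate 2, and it overlapped the controls under the other normalizations. Dnaaf2, a factor of dynein arm assembly, was the low value of replicate 2 alone, with 0.02, -0.38, -0.31 and -2.87 in the same order. Among those higher on replicate 2, the homeobox gene Vax2 had 1.61, 1.42, -1.0 and 1.37, so that it was low on replicate 1 alone, and overlapped the controls after normexp correction. The others were Olfr572, 4930401C15Rik, Vmn1r203 and Olfr594.

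Among genes with a mean log2 signal over 0, Tet1 itself had the largest difference of this kind, -1.80 for the array labelled replicate 2 minus the array labelled replicate 1. Kifc1, a minus-end directed kinesin, came next with 2.18 and 1.99 on the EGFP KD arrays, and the arrays labelled Tet1 KD had 2.20 (replicate 1) and 0.66 (replicate 2). Raly, an RNA-binding protein, had 3.45, 3.0, 3.25 and 2.12 in the same order. In the other direction H3f3a, which encodes histone H3.3, had 4.85, 4.70, 4.00 and 5.04. These are values of single arrays, and no test of a difference between replicates was made.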

How the data were processed

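Total RNA of E14 cells was labelled with Cy3 and hybridised 1 sample per array, and the deposited values are spot intensity values that the authors' Agilent Feature Extraction software (version 10.7.1.1) had corrected for local background without normalization between arrays. A table of the authors' own ratios to EGFP KD was also deposited and was not used.

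Of the non-control spots, 43020 were averaged to 39429 probes and 1377 control spots were left out. Each intensity was divided by the 75th percentile of its array, set to a floor of 0.0344 and put on the log2 scale. The brightest probe stood for a gene, and a gene was tested (29546 in all) where the 2 arrays of any group were both well above background. The 6 groups were fitted together in limma 3.58.1 (R 4.3.3) with Benjamini-Hochberg adjustment over all genes, and the fit was tested on simulated data. There it called 23 of 100 genes changed by a log2 of 1 and 57 of 100 changed by a log2 of 2, with 3 false calls. Many real changes of these sizes could therefore be missed, and a count of 0 called genes does not show that no gene changed. The alternatives were quantile normalization, normexp background correction (offset 50), other filters and probe rules, a block for the slide or for the replicate number, the 4 arrays alone, another variance prior, and leaving out each array. The floor was not applied in the quantile and normexp settings. The normexp setting started from median spot and local background intensities instead of the processed intensities.

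Named genes were the targeted genes, the other TET and DNMT genes, up to 4 members of each of 19 lists in each direction by the gap between the groups together with the first members of each list, the 8 largest gaps in each direction, the 5 largest differences between the arrays labelled Tet1 KD and the 5 smallest p. Other members were named after their values were seen. Members, lists and rules were chosen with earlier results of these data known. The gap and difference rules among genes with a mean log2 signal over 0 were added after seeing the data. Gene names and promoters came from RefSeq (GRCm38.p6), and 445 of 480 listed genes were tested. Some genes are counted in their lists and are not reported by name here.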

Additional observations from a re-analysis of the deposited data

How the results depend on the processing

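The number of genes called was 0 in the fit given and under quantile normalization, normexp correction, the stricter filter, single probes, the slide block, the 4 arrays alone and another variance prior. It was 1 with no filter on dim probes and 1 with the mean of a gene's probes, and ranged from 0 to 30 on leaving out 1 array. Genes higher at an unadjusted p under 0.05 went from 576 to 110 (quantile), 40 (normexp) and 325 (well above background on all 4 arrays), with a range of 360 to 1468 on leaving out 1 array. Genes lower went from 265 to 1027 (normexp), 149 (well above background on all 4 arrays) and 544 (slide block), with a range of 199 to 725. Genes above both controls went from 6881 to 2575 (normexp) and 766 (mean log2 signal over 0, chosen after seeing the data), with a range of 9189 to 15557 on leaving out 1 array, when fewer arrays have to be passed. Genes below went from 3546 to 2181 with a mean log2 signal over 0 and ranged from 6301 to 7556. The cause of the changes with normalization was not tested.

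Tet1 stayed below 0 under every alternative, from -1.81 to -0.02 on leaving out 1 array, and Mbd2 ranged from -0.61 to -0.20. The second Tet1 probe ranged from -0.93 to 0.23 and changed sign without the array labelled Tet1 KD replicate 2 (0.23), and the second Mbd2 probe ranged from -1.75 to -0.23. Under normexp correction 63 of the 193 genes picked by the naming rules (Tet1 and Mbd2 apart) changed sign, as did 14 of 19 list medians. Under quantile normalization these counts were 18 and 6. These counts include a shift of all genes, whose median went from 0.09 to -0.26 under normexp correction and to 0.0 under quantile normalization. The normexp shift was larger for genes at the floor, such as Brachyury (T), which went from 0.0 to -1.23.

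With the replicate number as a block, 0 genes were called, 781 were higher and 660 lower at an unadjusted p under 0.05, and Tet1 was at -0.92. The share higher was 54.2% under the replicate block and 55.8% under the slide block. The correlation of replicate differences was 0.14 between EGFP KD and Tet1 KD. Over the 15 pairs of groups it ranged from -0.04 to 0.77 and was over 0.1 in 10, so the numbers were not taken as pairs, since this did not hold in every pair. The highest correlations were between groups whose replicates lay on the same slides (Dnmt1 KD, Mbd3 KD and Mbd2 KD, 0.64 to 0.77).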
